A study of Mus musculus with 8 samples.

Results

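The 10 genes described here mark fat cells or make fatty acids, and their reads were followed in gastrocnemius muscle of mice lacking a catalytic subunit of AMP-activated protein kinase (AMPK). The adipocyte set held Adipoq, Cfd, Retn, Plin1, Cidec and Fabp4, and the lipogenic set held Acly, Acaca, Fasn and Scd1. Each alternative polyadenylation site (APS) that carried one of the 10 symbols was taken, whatever its values, per site and summed per gene. The list of genes was set with earlier results of these data known. They made up 10 of 15378 genes and 38 of 56483 APSs, of which 20 APSs belonged to the adipocyte set and 18 to the lipogenic set.

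The assay, WTTS-seq, sequences fragments that begin at the poly(A) tail, so that a count is a number of reads ending at an APS. There were 4 groups of 2 mice with 1 library per mouse: AMPKα1 KO, AMPKα1 WT, AMPKα2 KO and AMPKα2 WT. Labels gave C57BL/6 as the strain background and adult as the stage of all 8 mice. Per the study's methods, AMPKα1 KO mice were on 129S2/SvPas and about 6 weeks old, AMPKα2 KO mice were on C57BL/6 and about 8 weeks old, and no age was stated for the WT mice. Each KO was a whole-body knockout (Prkaa1 or Prkaa2), so the fat cells and vessels of the muscle lacked the subunit as well as its fibres. KO was compared with WT only within a model, because the models differ in library makeup and possibly in strain and age.

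White adipocytes store triglyceride in a droplet coated by perilipin 1 and CIDE proteins and secrete the adipokines adiponectin, adipsin and resistin. Skeletal muscle holds such cells between its fibres and bundles. Fatty acids are made from citrate in turn by ATP citrate lyase, acetyl-CoA carboxylase and fatty acid synthase, and stearoyl-CoA desaturase then adds a double bond. AMPK phosphorylates and inhibits acetyl-CoA carboxylase and restrains SREBP-1c, a transcription factor that drives the lipogenic genes.

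Library totals ran from 2311242 to 3549156 reads. The 10 genes held 0.0718% and 0.297% of reads in the AMPKα1 KO libraries (replicates 1 and 2, in this order throughout) and 0.0766% and 0.0657% in their WT. In the AMPKα2 model they held 0.0254% and 0.0219% in KO and 0.0653% and 0.0259% in WT. AMPKα1 KO replicate 2 and AMPKα2 WT replicate 1 therefore stood above the other 3 libraries of their models. The AMPKα1 KO libraries also differed from each other across all genes: of genes with at least 50 reads in one, 6.33% (replicate 1) and 8.45% (replicate 2) had no read in the other, against at most 1.03% in any other group. Biological coefficients of variation were 104% (AMPKα1 model) and 26.2% (AMPKα2 model) at the gene level. Prkaa1 had 0 and 82 reads in AMPKα1 KO against 15 and 0 in WT, and Prkaa2 had 40 and 71 reads in AMPKα2 KO against 87 and 62 in WT. Reads at 3′ ends do not check a deletion of coding exons upstream, so these counts neither bear out nor contradict the labels.

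Muscle fibre markers were high in every library, with a sum over Acta1, Ckm, Myh4, Mb and Tnnt3 of 31420 to 90260 reads per 1000000 reads (CPM). Adipocyte RNA was detected in every library too. Of the 9 adipocyte markers, 8 had an APS in the table, and their summed level was 351 and 1877 CPM in AMPKα1 KO, 638 and 407 CPM in AMPKα1 WT, 264 and 139 CPM in AMPKα2 KO and 452 and 190 CPM in AMPKα2 WT. Here 5 of those 9 markers are members, and Cfd alone gave 1488 of the 1877 CPM and 333 of the 452 CPM. Without Cfd the sums were 139 and 389 CPM in AMPKα1 KO, 192 and 82.7 CPM in AMPKα1 WT, 146 and 69.4 CPM in AMPKα2 KO and 119 and 79.7 CPM in AMPKα2 WT, so that KO replicate 1 was then the highest AMPKα2 library. Cidec and Pparg were at 0 in AMPKα1 KO replicate 1, and Pparg was at 0 in AMPKα2 KO replicate 2 and AMPKα2 WT replicate 2. In AMPKα1 KO replicate 1 the only Adipoq reads were antisense to the gene. Of the brown adipocyte markers Ucp1 and Cidea, Cidea alone had an APS in the table, at no more than 6.10 CPM. In bulk muscle, fewer fat cells and less RNA per fat cell cannot be told apart. CPM was scaled by TMM within each model, and levels are therefore compared within a model only.

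The bases before the main APS of each gene, the one with most reads, are shown because the counts rest on these 3′ ends. Reference bases are from the GENCODE M21 transcripts (GRCm38), 5′ to 3′ on the gene's strand. Capitals mark the poly(A) signals AATAAA and ATTAAA, which were searched on that strand only and overlap in Fabp4. The first 6 windows end at the APS, and the last 4 are the closing bases of the annotated transcript, which stops 1 to 6 bases before the APS.
Adipoq, chr16:23157717-23157746, + strand: ctcacttgttcATTAAAcgactttataaaa
Retn, chr8:3659792-3659821, + strand: cttaaaAATAAAacaaaacaggctggatgt
Plin1, chr7:79720223-79720252, - strand: ataatacatacttgtaacgttcaaacacta
Cidec, chr6:113424639-113424668, - strand: agagtctgcagtaaactatttatgctgata
Fabp4, chr3:10204344-10204373, - strand: ttgATTAAATAAAacctttttagacttaga
Fasn, chr11:120807076-120807105, - strand: tgatcccacaATTAAActgcacgtgagcga
Cfd, chr10:79892626-79892655, + strand: acgtggctcacAATAAAtgcatgcatctga
Acly, chr11:100476353-100476382, - strand: tgctttaAATAAActagatagtaacaatgg
Acaca, chr11:84401622-84401651, + strand: gttgaAATAAAcctccacatttgtagaaga
Scd1, chr19:44394455-44394484, - strand: cctAATAAAagtggatctggttgtactgtc

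A signal stood in these 30 bases for 8 of the 10 main APSs, starting at offsets −28 to −19 with the APS base counted as −1. Plin1 and Cidec had neither hexamer. Of all 21207 APSs in the table whose 30 upstream bases lay in 1 exon, main or not, 40.5% held AATAAA or ATTAAA. The like count over the members was 7 of 22 APSs (31.8%). The 8 of 10 covers main APSs only and has no such share beside it. A match describes the sequence and does not show that the site is used in this way.

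No member passed the threshold in either model. By edgeR's quasi-likelihood test, 0 of 10 members were called at an adjusted p under 0.1 between AMPKα1 KO and WT, where 0.0% of 13941 genes were called. The count at an unadjusted p under 0.05 was 2 of 10 members and 588 of all genes. Between AMPKα2 KO and WT, 0 of 10 members were called, against 0.701% of 10552 genes, with 0 members and 903 genes at an unadjusted p under 0.05. DESeq2 called no member either, where its calls came to 1.23% of 10095 genes (AMPKα1) and 1.18% of 6956 genes (AMPKα2). All 10 members had a fitted log2 fold change above 0 in the AMPKα1 model (median 0.91, all genes −0.03), and 8 of 10 had one below 0 in the AMPKα2 model (median −0.34, all genes −0.01). Many of those signs changed when a library was left out. Without AMPKα1 KO replicate 2, 5 of 10 were above 0 in the AMPKα1 model (median −0.16). In the AMPKα2 model 7 of 10 were above 0 without KO replicate 2 (median 0.09), 5 without WT replicate 1 (−0.04) and 0 without KO replicate 1 (−0.90). Plin1, Fabp4, Retn and Fasn kept their sign in the AMPKα1 model, and Cfd and Retn in the AMPKα2 model.

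**Figure D1:**
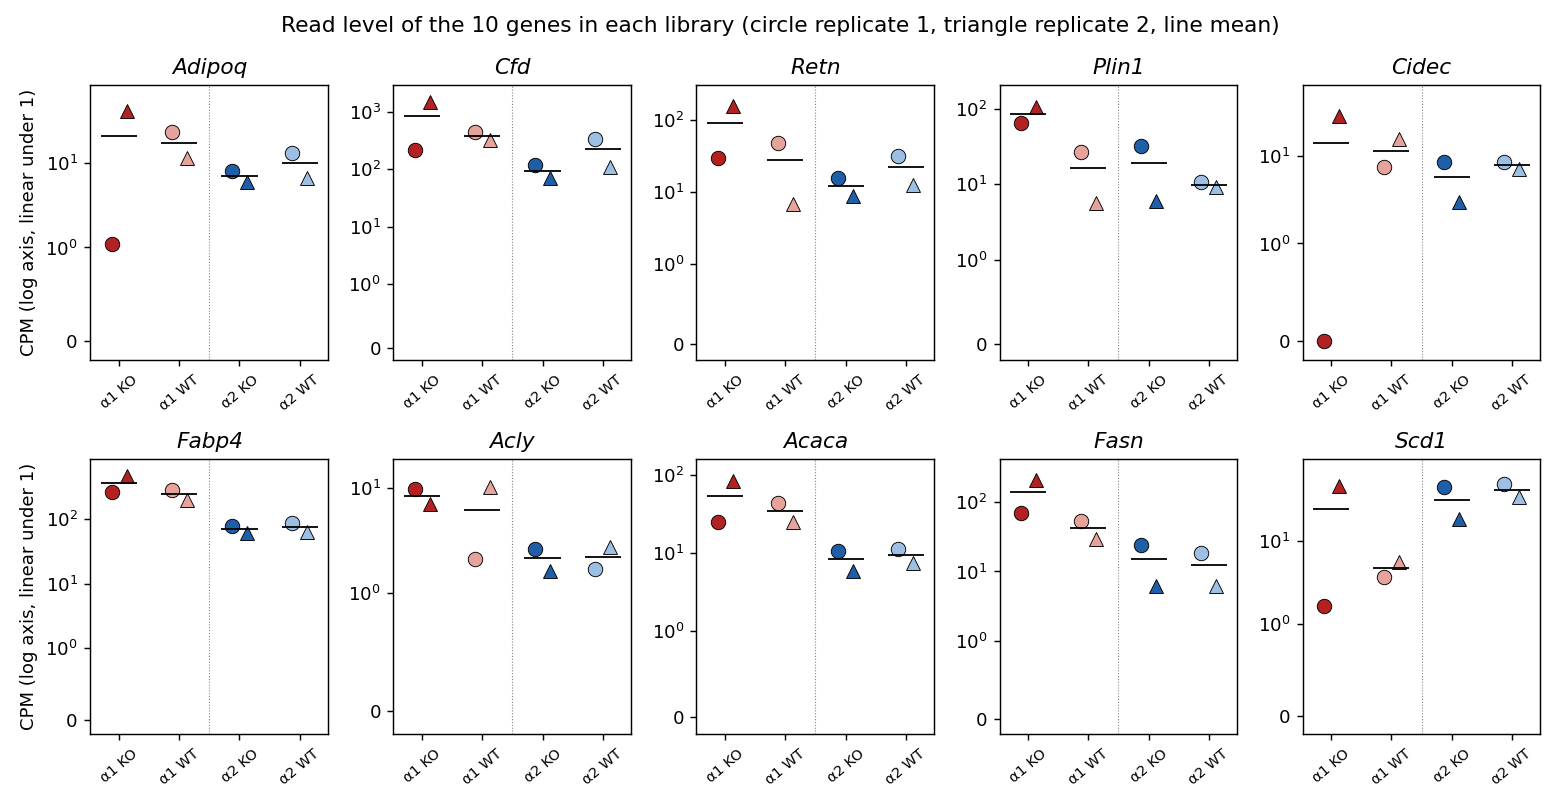
CPM of each gene (log axis, linear under 1 CPM) in the 8 libraries, by group, with circles for replicate 1, triangles for replicate 2 and a line for the mean of 2. AMPKα1 KO replicate 2 is the highest AMPKα1 library for every gene except Acly, and Cidec is at 0 in AMPKα1 KO replicate 1.

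Among the adipokines, Adipoq encodes adiponectin, a hormone secreted by fat cells (GRCm38 chr16:23146536-23158028, + strand). It had 4 and 152 reads in AMPKα1 KO against 44 and 40 in WT. The 4 reads of KO replicate 1 all lay at an APS antisense to the gene (position 23157090). Neither sense APS had a read in that library. The antisense APS also held 12 reads in KO replicate 2, and 2 and 9 reads in WT. The KO mice held both the lowest and the highest value, 1.11 and 40.9 CPM, around WT values of 23.4 and 11.3 CPM. The fitted log2 fold change was 0.28 ± 1.52 (SE, n = 2 and 2, edgeR adjusted p = 0.999), and without KO replicate 2 it was −3.92. For AMPKα2, 15 and 18 reads in KO (7.95 and 5.90 CPM) overlapped 54 and 17 reads in WT (13.2 and 6.67 CPM), with a log2 fold change of −0.57 ± 0.45 (edgeR adjusted p = 0.759).

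Cfd encodes adipsin, a serine protease of the complement system that fat cells secrete (chr10:79890853-79892655, + strand). In AMPKα1 KO it had 765 and 5529 reads, and in WT 839 and 1148 reads. Its 1488 CPM in KO replicate 2 were 7.02 times the 212 CPM of KO replicate 1, which lay below both WT libraries (446 and 324 CPM). The log2 fold change of 1.14 ± 0.84 (edgeR adjusted p = 0.783) turned to −0.87 without KO replicate 2. Cfd in the AMPKα2 model had 222 and 211 reads in KO against 1366 and 282 in WT, or 118 and 69.1 CPM against 333 and 111 CPM. The 3 libraries other than WT replicate 1 lay within 69.1 to 118 CPM and overlapped between the groups. Its log2 fold change of −1.26 ± 0.59 (edgeR adjusted p = 0.631) was the farthest from 0 of the members in that model. Without WT replicate 1 it was −0.27. It was called with 3 alternatives, at an edgeR adjusted p of 0.0292 with library totals (1.66% of genes called), 0.00340 without the filter on low counts (2.69% called) and 0.0858 without WT replicate 2 (1.08% called), and was not called with any of the others. In the last of these, the lone WT library was assumed to vary like the KO libraries.

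Retn encodes resistin (chr8:3655770-3660110, + strand). It had 108 and 569 reads in AMPKα1 KO against 90 and 24 in WT. The WT mice differed by more than 7-fold on the CPM scale (47.9 and 6.78) and the KO mice by 5.12-fold (29.9 and 153), so the groups overlapped. The log2 fold change was 1.76 ± 1.12 (edgeR adjusted p = 0.763), and 0.14 without KO replicate 2. With AMPKα2 there were 29 and 27 reads in KO against 130 and 32 in WT, at 15.4 and 8.85 CPM against 31.7 and 12.6 CPM. KO replicate 1 lay above WT replicate 2, and the log2 fold change of −0.93 ± 0.48 (edgeR adjusted p = 0.630) became −0.10 without WT replicate 1.

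Of the droplet proteins, Plin1 encodes perilipin 1, the coat protein that gates lipolysis (chr7:79720218-79732903, - strand). It was one of 2 members whose AMPKα1 KO libraries both lay above both WT libraries, with 236 and 389 reads against 50 and 20. On the CPM scale, 65.4 and 105 stood against 26.6 and 5.65. The 2 of 10 members with this order, Plin1 and Fasn, compare with 13.6% of 13941 genes, and no member had both KO libraries below WT (18.9% of genes). The log2 fold change was 2.42 ± 0.85 (edgeR adjusted p = 0.763, not adjusted 0.0284) and ran from 1.71 to 3.90 when each library was left out. At the main APS alone it was 1.25 ± 1.07 (edgeR adjusted p = 0.635), from 63 and 229 reads in KO against 46 and 20 in WT. A second 3′ UTR APS had 99 and 124 reads in KO against 3 and 0 in WT, and an intronic APS had 74 reads in KO replicate 1. The gene sums of the KO libraries thus rested in part on APSs other than the main one. Plin1 in the AMPKα2 model had 61 and 18 reads in KO against 44 and 23 in WT. KO replicate 1 was the highest at 32.3 CPM and KO replicate 2 the lowest at 5.90 CPM, around 10.7 and 9.03 CPM in WT. Its log2 fold change of 0.87 ± 0.79 (edgeR adjusted p = 0.824) was −0.75 without KO replicate 1. In that model no member had its KO libraries both above or both below WT, against 18.8% and 20.6% of 10552 genes.

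Cidec, also known as Fsp27, enlarges lipid droplets by fusion (chr6:113424634-113435760, - strand). It had 0 and 105 reads in AMPKα1 KO against 14 and 55 in WT. The 0 in KO replicate 1 allows up to 3 reads, or 0.831 CPM on the TMM scale, while KO replicate 2 was the highest of the 4 at 28.3 CPM, above 7.45 and 15.5 CPM in WT. The fit gave a log2 fold change of 0.29 ± 2.11 (edgeR adjusted p = 0.999). Without KO replicate 2 it was −8.12, a value that depends on the prior count. For AMPKα2, 16 and 9 reads in KO (8.48 and 2.95 CPM) overlapped 35 and 18 reads in WT (8.53 and 7.07 CPM), with a log2 fold change of −0.54 ± 0.52 (edgeR adjusted p = 0.824).

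Fabp4 encodes a fatty acid carrier of fat cells that capillary endothelium and macrophages also make (chr3:10204088-10208576, - strand). Its level differed by at most 1.73-fold between the mice of any group. In AMPKα1 KO it had 970 and 1732 reads and in WT 539 and 720, at 269 and 466 CPM against 287 and 203 CPM. KO replicate 1 lay between the WT libraries, and the log2 fold change was 0.59 ± 0.45 (edgeR adjusted p = 0.806). In AMPKα2 KO there were 151 and 186 reads and in WT 358 and 164, at 80.0 and 60.9 CPM against 87.2 and 64.4 CPM, with a log2 fold change of −0.11 ± 0.26 (edgeR adjusted p = 0.943). The 6 endothelial markers summed to 191 and 196 CPM in AMPKα1 KO and 361 and 300 CPM in WT. Gpihbp1 alone was at 0 and 1.08 CPM in KO and 159.6 and 36.15 CPM in WT. Gpihbp1 and Kdr had both KO libraries below WT, as did 18.9% of 13941 genes, while Pecam1, Cdh5, Cav1 and Tie1 overlapped. The 5 macrophage markers summed to 69.8 and 98.8 CPM in AMPKα1 KO, with Cd68 at 0 in both, and to 102 and 120 CPM in WT. Endothelial sums in the AMPKα2 model were 77.9 and 63.9 CPM in KO and 58.0 and 65.5 CPM in WT, and macrophage sums were 80.0 and 70.4 CPM in KO, with Cd68 at 0 in replicate 2, and 101 and 69.1 CPM in WT. The part of these cells in the Fabp4 values was not tested.

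The lipogenic enzymes start with Acly, ATP citrate lyase, which cleaves citrate into acetyl-CoA and oxaloacetate in the cytosol (chr11:100476353-100528000, - strand). It was the member with fewest reads, 35 and 26 in AMPKα1 KO against 4 and 36 in WT, and 5 and 5 in AMPKα2 KO and 7 and 7 in WT. WT replicate 2 was the highest AMPKα1 library at 10.2 CPM and WT replicate 1 the lowest at 2.13 CPM, with 9.70 and 7.0 CPM in KO between them. Log2 fold changes were 0.43 ± 1.81 (AMPKα1, edgeR adjusted p = 0.999) and −0.06 ± 0.70 (AMPKα2, edgeR adjusted p = 0.989). All 35 reads of AMPKα1 KO replicate 1 lay at an intronic APS (position 100510610, 34257 bases upstream of the gene end) that had no read in any other library, and that library had no read at the main APS.

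Acaca encodes acetyl-CoA carboxylase 1, the AMPK substrate that makes malonyl-CoA (chr11:84129672-84401651, + strand). Its 91 and 313 reads in AMPKα1 KO against 83 and 88 in WT gave 25.2 and 84.2 CPM against 44.2 and 24.9 CPM. KO replicate 1 was level with the lower WT library, and the log2 fold change of 0.67 ± 0.76 (edgeR adjusted p = 0.963) was −0.45 without KO replicate 2. For AMPKα2, 20 and 18 reads in KO against 46 and 19 in WT gave 10.6 and 5.90 CPM against 11.2 and 7.46 CPM, with overlap and a log2 fold change of −0.24 ± 0.43 (edgeR adjusted p = 0.922).

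Fasn encodes fatty acid synthase, which builds palmitate (chr11:120805846-120824547, - strand). In the AMPKα1 model it had 247 and 763 reads in KO against 101 and 103 in WT, or 68.4 and 205 CPM against 53.7 and 29.1 CPM. Both KO libraries lay above both WT libraries, KO replicate 1 by a small margin. The log2 fold change was 1.73 ± 0.69 (edgeR adjusted p = 0.763, not adjusted 0.0443) and stayed between 0.72 and 2.31 with each library left out. In AMPKα2 KO it had 45 and 19 reads and in WT 75 and 16, or 23.8 and 6.22 CPM against 18.3 and 6.28 CPM. Replicate 1 was the higher in both groups there, and the log2 fold change was 0.18 ± 0.78 (edgeR adjusted p = 0.967).

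Scd1 encodes the desaturase that makes oleate from stearate (chr19:44394455-44407879, - strand). It had 6 and 174 reads in AMPKα1 KO against 7 and 20 in WT. A single library carried the difference, at 46.8 CPM in KO replicate 2 against 1.66 CPM in KO replicate 1 and 3.72 and 5.65 CPM in WT. The log2 fold change of 2.36 ± 1.67 (edgeR adjusted p = 0.768) was −1.48 without KO replicate 2. For AMPKα2, 85 and 57 reads in KO against 203 and 88 in WT gave 45 and 18.7 CPM against 49.5 and 34.5 CPM. The groups overlapped, with a log2 fold change of −0.43 ± 0.41 (edgeR adjusted p = 0.824).

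**Figure D2:**
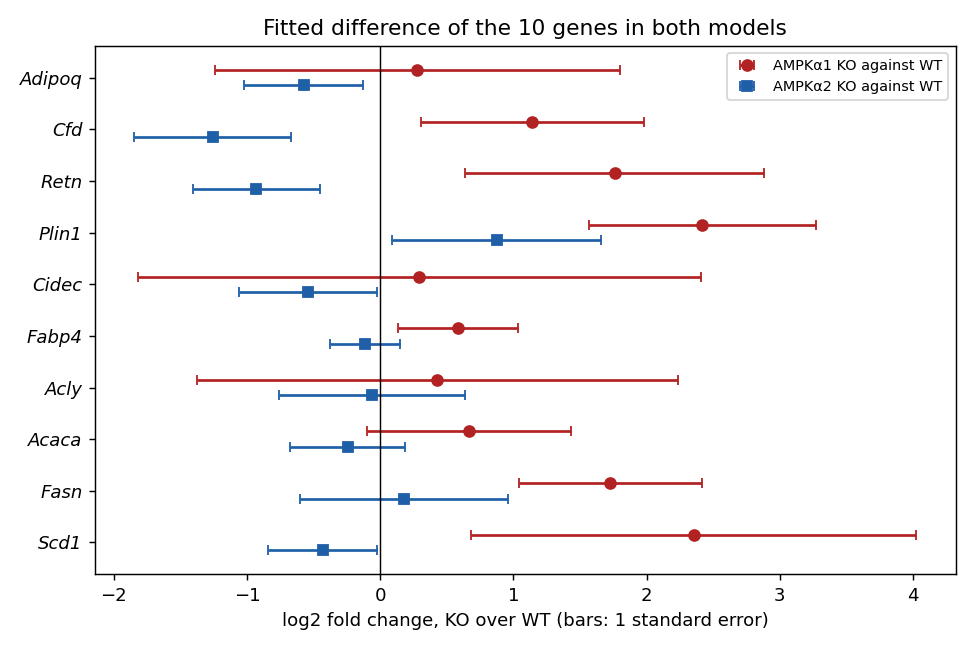
Fitted log2 fold change of KO over WT for each gene, with bars of 1 standard error, for the AMPKα1 model (circles) and the AMPKα2 model (squares), each from 2 KO and 2 WT libraries. Points of the AMPKα1 model run from 0.28 to 2.42 and those of the AMPKα2 model from −1.26 to 0.87, and no gene passed an adjusted p of 0.1 in either.

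The KO effect was also compared between the models, with a genotype by model term fitted to 8 libraries. None of the 10 members was called, where edgeR called 0.065% of 15378 genes, 0 members and 1073 of all genes were at an unadjusted p under 0.05, and DESeq2 also called no member. The difference (AMPKα1 effect minus AMPKα2 effect) was 2.74 ± 1.5 for Scd1 (edgeR adjusted p = 0.777), 2.66 ± 1.37 for Retn (0.758 by edgeR) and 2.39 ± 1.11 for Cfd (0.728 by edgeR), all on the log2 scale. For the other members it lay between 0.50 and 1.53. Without AMPKα1 KO replicate 1, edgeR called Scd1 (3.78, adjusted p = 0.0423) and Cfd (3.32, adjusted p = 0.0667), in a fit that called 3.48% of 14778 genes. Without AMPKα1 KO replicate 2 it called Cidec, in the other direction (−6.75, adjusted p = 0.0974), with 3.13% of 14556 genes. Calls over the whole table thus rose from 10 to 514 and 456 in these fits. With AMPKα1 KO reduced to 1 library in these fits, that library was assumed to vary like the other groups.

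KO and WT libraries overlapped for 8 of 10 members in the AMPKα1 model and for all 10 in the AMPKα2 model, and mice of the same group often lay far apart. In AMPKα1 KO, 7 of 10 members (Adipoq, Cfd, Cidec, Retn, Scd1, Fasn and Acaca) were at least 2-fold higher on the CPM scale in replicate 2 than in replicate 1, where 28.5% of 13941 genes were. The median difference on the scale of log2(CPM + 1) was 2.01 over the members, 2.56 for the adipocyte set and 1.64 for the lipogenic set, and 0 over all genes tested. Adipoq differed by 36.9-fold and Scd1 by 28.2-fold, while Plin1 differed by 1.6-fold and Fabp4 by 1.73-fold. The Adipoq reads of KO replicate 1 were all antisense to the gene. In AMPKα1 WT, 3 of 10 members (Adipoq, Plin1, Retn) were at least 2-fold higher in replicate 1, beside 23.5% of genes, and 2 (Cidec, Acly) in replicate 2, beside 23.8%. In AMPKα2 WT, Cfd, Retn and Fasn were at least 2-fold higher in replicate 1, as were 9.23% of 10552 genes, and 9 of the 10 members were higher there. In AMPKα2 KO, Plin1, Cidec, Scd1 and Fasn were at least 2-fold higher in replicate 1, as were 11.6% of genes. Plin1 had the widest gap of that group at 5.48-fold, and 0.275% of genes lay further down in replicate 2. With 2 mice against 2, an exact permutation test of a single gene cannot go below a two-sided p of 0.333.

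**Figure D3:**
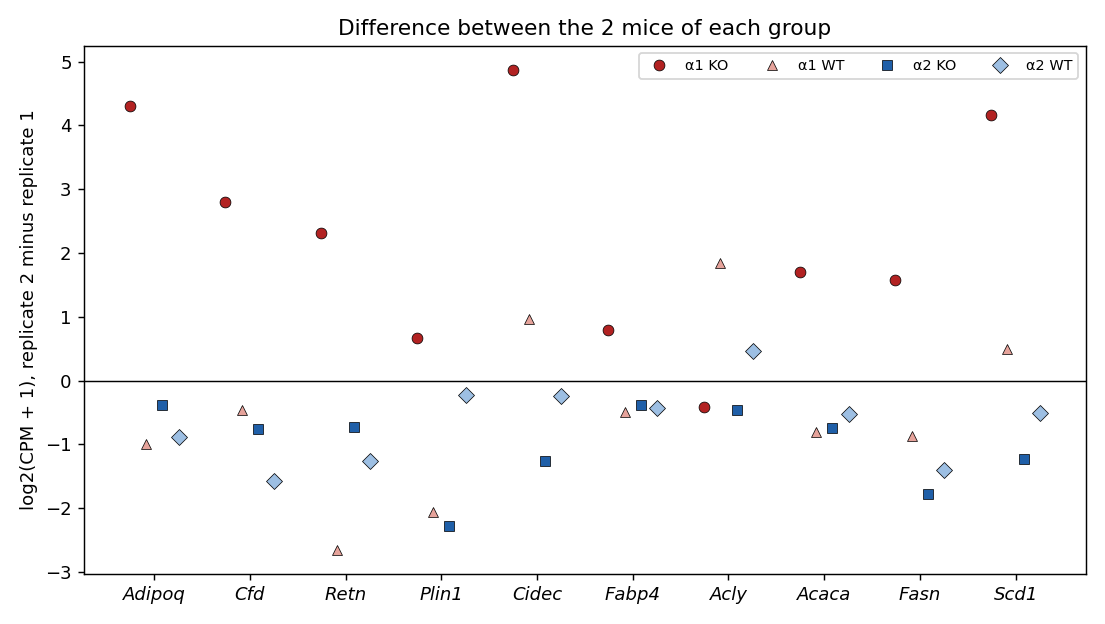
Difference in log2(CPM + 1) between replicate 2 and replicate 1 for each gene, with 1 symbol per group of 2 mice. In AMPKα1 KO every gene except Acly lies above 0, with Cidec highest at 4.87, and in AMPKα2 KO every gene lies below 0.

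Other genes of the same pathways, from lists set by known function, gave no call. Of 20 other adipocyte genes, 18 (AMPKα1) and 15 (AMPKα2) were tested, and edgeR called none in either direction (1 and 3 at an unadjusted p under 0.05). Their median log2 fold change was 0.40 in the AMPKα1 model, with 10 of 18 above 0, and −0.04 in the AMPKα2 model, with 7 of 15 above 0. Lpl, the lipase that releases fatty acids from circulating triglyceride and is also made by muscle fibres, was the most abundant, at 2419 and 1529 CPM in AMPKα1 KO and 1022 and 1045 CPM in WT (log2 fold change 0.93, edgeR adjusted p = 0.763, not adjusted 0.0434). Both KO libraries lay above WT, as they did for 13.6% of genes. Lpl in the AMPKα2 model was at 243 and 327 CPM in KO and 308 and 318 CPM in WT. Gpd1, glycerol-3-phosphate dehydrogenase, was at 308 and 356 CPM in AMPKα1 KO and 946 and 368 CPM in WT, and at 143 and 92.7 CPM in AMPKα2 KO and 126 and 155 CPM in WT. Both AMPKα1 KO libraries of Gpd1 lay below WT, as they did for 18.9% of genes.

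Of 21 other lipogenic genes and regulators, 19 and 17 were tested, and edgeR again called none in either model (1 and 5 at an unadjusted p under 0.05). The median log2 fold change was 0.59 in the AMPKα1 model, with 15 of 19 above 0, and 0.00 in the AMPKα2 model, with 9 of 17 above 0. Gpam, which starts triglyceride synthesis, was at 228 and 129 CPM in AMPKα1 KO and 234 and 315 CPM in WT, with both KO libraries below WT (log2 fold change −0.62, edgeR adjusted p = 0.784). In AMPKα2 KO it was at 65.2 and 50.5 CPM and in WT at 34.8 and 38.1 CPM, with both KO libraries above WT (log2 fold change 0.66, edgeR adjusted p = 0.513, not adjusted 0.0279). Lpin1, a phosphatidate phosphatase, was at 274 and 177 CPM in AMPKα1 KO and 191 and 196 CPM in WT. In the AMPKα2 model it was at 31.8 and 55.4 CPM in KO and 76.7 and 74.2 CPM in WT, with both KO libraries below WT (log2 fold change −0.78, edgeR adjusted p = 0.460, not adjusted 0.0216). Mid1ip1, which binds acetyl-CoA carboxylase and promotes its assembly into filaments, was the most abundant of the list in the AMPKα2 model, at 303 and 164 CPM in KO and 15.6 and 81.6 CPM in WT. Both of its KO libraries lay above WT, with a log2 fold change of 2.28 ± 1.02 (edgeR adjusted p = 0.665). Over all genes of the AMPKα2 model, both KO libraries lay above WT for 18.8% and below for 20.6%. In the AMPKα1 model both lay below for 18.9%.

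Genes were also ranked by how closely they followed the adipocyte set over the 8 libraries, as Pearson's r with the mean log2(CPM + 1) of its 6 genes after subtracting each model's mean. This mean was lowest in AMPKα1 KO replicate 1 (−1.02) and highest in AMPKα1 KO replicate 2 (1.61), so the 2 mice of 1 group set most of the pattern. Among 6723 genes with a mean of at least 10 CPM, Acaca, which is no part of that mean, ranked first (r = 0.99). Scd1 (r = 0.91) and Fasn (r = 0.81) ranked 32 and 159. The 5 closest genes outside the members were Tmed9, Erap1, Tia1, Med14 and A930003A15Rik (r = 0.98 to 0.96). Of the adipocyte set, Cidec fell under the 10 CPM limit, and of the other 5, each of which is part of the mean, Cfd and Fabp4 followed it most closely (r = 0.93 and 0.92) and Plin1 least (r = 0.56). These coefficients describe 8 libraries and share their scaling.

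The 38 APSs of the members lay in 3′ UTRs (16), introns (9), past the annotated gene end (6), coding exons (4) and a 5′ UTR (1), and 2 were antisense to their gene. Retn had 1 APS, Scd1 had 7 and Acaca had 6, of which 4 were intronic. No APS of a member was called. In the AMPKα1 model 0 of 28 APSs tested were called, against 0.00454% of 44024 (edgeR, 2 and 1353 at an unadjusted p under 0.05). For AMPKα2, 0 of 23 were called, against 0.056% of 23218 (edgeR, 2 and 1763 at an unadjusted p under 0.05), and DESeq2 called none in either model. Without the filter on low counts, edgeR called the main Cfd APS and the coding-exon Plin1 APS in the AMPKα2 model, in a fit that called 1.11% of 50017 APSs. The lowest unadjusted values were those of the second Plin1 3′ UTR APS (position 79721173) and the main Fasn APS in the AMPKα1 model, and of the main Cfd and Scd1 APSs in the AMPKα2 model. That Plin1 APS had 99 and 124 reads in KO against 3 and 0 in WT, a log2 fold change of 5.15 ± 1.86 (edgeR adjusted p = 0.543). The main Scd1 APS had 23 and 21 reads in AMPKα2 KO against 89 and 40 in WT, a log2 fold change of −1.14 ± 0.44 (edgeR adjusted p = 0.629).

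Several member APSs had reads in 1 AMPKα1 library only. Of 28 with at least 16 AMPKα1 reads, 9 (32.1%) had all of them in 1 library, against 23.9% of 44024 APSs in the table. KO replicate 2 held 6 of the 9, among them an APS past the end of Cidec (44 reads), the most distal Fasn APS (42 reads) and an Acaca intronic APS (position 84335695, 45 reads). In the AMPKα2 model none of 23 such APSs had all its reads in 1 library, beside 0.0991% of 23218. APSs used in 1 model alone numbered 11. Of these, 7 had no AMPKα1 read (18.4% of 38, against 12.6% of all APSs) and lay in coding exons of Plin1 and Cfd, in the 3′ UTRs of Fabp4 and Scd1 and in the 5′ UTR of Scd1. The other 4 had no AMPKα2 read (10.5%, against 11.4% of all) and lay past the Cidec end and in introns of Acaca and Acly.

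Fabp4 used its APSs differently in the models. Its main 3′ UTR APS took 97.3% and 95.7% of its reads in AMPKα1 KO and 95.7% and 96.3% in AMPKα1 WT. In AMPKα2 KO it took 23.8% and 48.4%, and in AMPKα2 WT 35.2% and 42.1%. Wilson 95% intervals, which cover at most counting error, ran from 93.7% to 98.2% over the AMPKα1 libraries and from 17.7% to 55.5% over the AMPKα2 libraries. An APS in a coding exon (position 10205268) held most of the rest, with 73 and 71 reads in AMPKα2 KO, 176 and 82 in AMPKα2 WT, and 6 reads in all in the AMPKα1 model. KO and WT overlapped in the shares of the main APS within each model. The coding-exon APS took 48.3% and 38.2% in AMPKα2 KO and 49.2% and 50% in AMPKα2 WT. Both KO shares lay below WT, KO replicate 1 by a small margin. No like count over all genes was made for such an APS. For main APS shares in this model, KO lay below WT for 24.2% of 3255 genes and above for 12.6%. Of 5 members with more than 1 APS and at least 16 reads in every library (Plin1, Fabp4, Cfd, Fasn, Acaca), Fabp4 and Cfd had main APS shares that were all higher in the AMPKα1 libraries, as did 32.7% of 2811 genes, and none had shares that were all lower, as 7.93% of genes had. Cfd gave 100% in each AMPKα1 library and 92.3% to 97.2% in the AMPKα2 libraries. The main APS was chosen on reads summed over all 8 libraries, so the model with more reads weighed more in the choice. At the main Fabp4 APS, 3810 of 4131 reads came from AMPKα1 libraries. In the AMPKα2 libraries the coding-exon APS of Fabp4 held more reads than the main APS (402 and 321). The order of main APS shares between the models depends in part on that choice.

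Coding exons took a larger share of reads in the AMPKα2 libraries for the table as a whole as well. Reads at APSs inside coding sequence made up 3.96% to 5.38% of sense reads in protein-coding genes in the AMPKα1 libraries and 15% to 21.2% in the AMPKα2 libraries. For the members, 0 to 0.339% of reads lay there in the AMPKα1 libraries and 9.71% to 22.2% in the AMPKα2 libraries. The member share was counted in a slightly different way. An APS in a 3′ UTR of any transcript of its gene was not counted as coding, and antisense reads stayed in the total. Strain, age and library preparation cannot be told apart from the model here.

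Reference bases on both sides of the coding-exon APSs of Fabp4 and Plin1 are shown because these sites have reads almost only in the AMPKα2 libraries. Capitals in the first window of Fabp4 mark a poly(A) signal, which sits closer to the APS (offset −10) than in the main APSs above.
Fabp4 before, chr3:10205268-10205297, - strand: tgggatggaaagtcgaccacAATAAAgaga
Fabp4 after, chr3:10205238-10205267, - strand: aaacgagatggtgacaagctggtggtggtg
Plin1 before, chr7:79723294-79723323, - strand: cacagagggagaggagacagacgacgagga
Plin1 after, chr7:79723264-79723293, - strand: ggaggaagaagagtccgaggctgaggagaa
An A-rich stretch, taken as 7 A in a row or 8 A within 10 bases, was found in the 30 bases after neither. The search did not cover stretches that span the APS. Joined across the APS, the Fabp4 windows do hold 8 A within 10 bases. In the 30 bases after the APS, such a stretch was found for 1 of 19 readable member APSs, the main APS of Adipoq, and for 24% of 15160 APSs in the table.

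**Figure D4:**
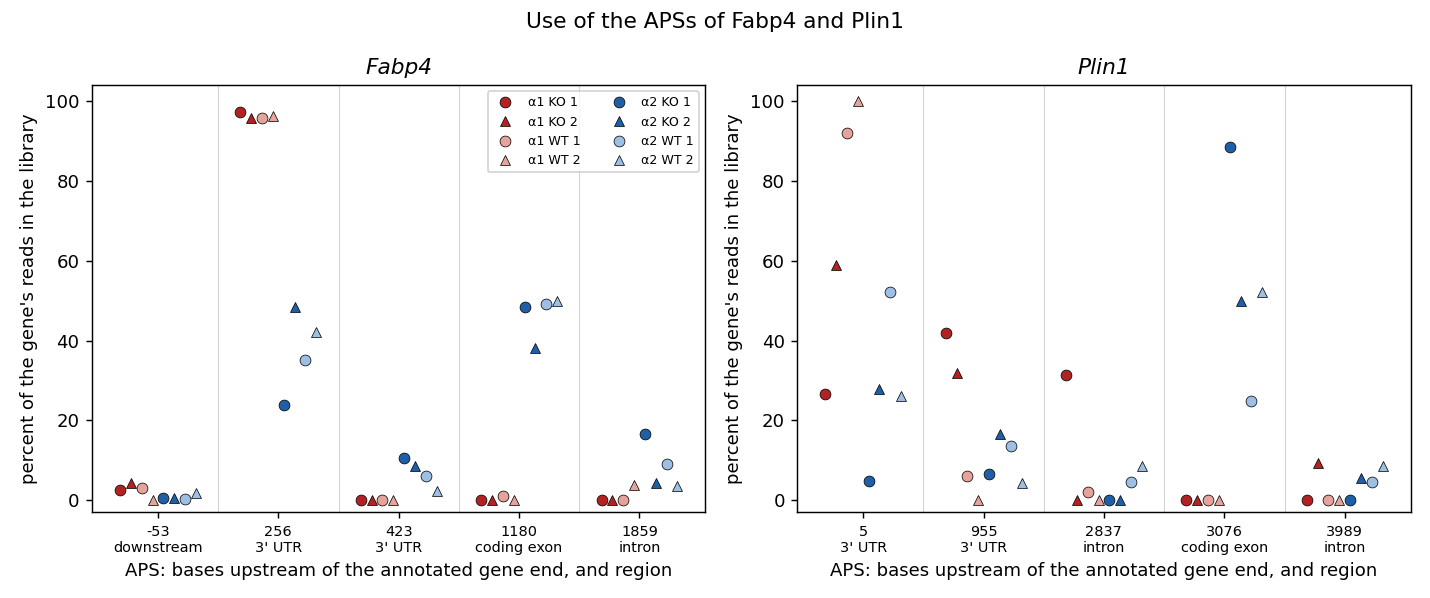
Percent of the reads of Fabp4 and Plin1 at each of their APSs, by distance in bases upstream of the annotated gene end and by region, with 1 point per library (circles replicate 1, triangles replicate 2). The main Fabp4 APS, 256 bases before the gene end, takes over 95% of reads in the AMPKα1 libraries and 23.8% to 48.4% in the AMPKα2 libraries, and the Plin1 coding-exon APS has reads in the AMPKα2 libraries only.

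The reads of Plin1 were split over its APSs in unlike proportions in KO and WT of the AMPKα1 model, which were not tested. Its main APS, 5 bases before the gene end, took 26.7% and 58.9% of reads in AMPKα1 KO and 92.0% and 100% in WT. The second APS, 955 bases before the gene end, took 41.9% and 31.9% in KO and 6.00% and 0% in WT. An intronic APS (position 79723055) added 74 reads in KO replicate 1, 1 read in WT replicate 1 and none in the other 2 libraries. Acaca showed the same order, with 63.7% and 77.6% of reads at its main APS in KO and 92.8% and 97.7% in WT. These were 2 of 5 members measured (Plin1, Fabp4, Cfd, Fasn, Acaca) with KO shares below WT, where 15.4% of 5058 genes were, and no member had KO shares above WT, where 16.4% were. In the AMPKα2 model Scd1 was the 1 of 6 members with its KO shares below WT, at 27.1% and 36.8% against 43.8% and 45.5%, beside 24.2% of 3255 genes. None was above, beside 12.6%. The coding-exon APS of Plin1 held 54 of 61 reads in AMPKα2 KO replicate 1, 9 of 18 in KO replicate 2, 11 of 44 in WT replicate 1 and 12 of 23 in WT replicate 2. At the main APS of Plin1 the order was the other, with 3 and 5 reads in AMPKα2 KO against 23 and 6 in WT, so the Plin1 gene sum of KO replicate 1 rested on the coding-exon APS.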

How the data were processed

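Poly(A)-tailed RNA ends of gastrocnemius muscle were sequenced on the Ion Torrent platform. The authors trimmed leading T bases, kept reads of at least 16 bases, mapped them with TMAP to the NCBI mouse genome (GRCm38.p5 per the labels), joined read ends within 24 bases into APSs and kept APSs with at least 16 reads. The deposited values are raw read counts per APS and library. APS counts were summed per gene (9.33% of reads had no gene). Each model was fitted separately with edgeR 4.0.16 (TMM, robust quasi-likelihood test, R 4.3.3) over features with at least 16 reads in its 4 libraries, with Benjamini-Hochberg adjustment over all features tested and a threshold of 0.1. The interaction used all 8 libraries. The script was tested on simulated data. Alternatives were DESeq2 1.42.0, library totals, no filter, the replicate number as a block, each library left out and, for genes only, RLE factors, sense APSs only and 1 fit of all 8 libraries.

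Members, gene lists and tests were chosen with earlier results of these data known. All members and their APSs are named. Of the other lists, genes called or with the 2 highest mean CPM in a model are named, and of the genes most like the adipocyte set the 5 highest outside the members. A gene or APS singled out otherwise was chosen after its values were seen. APSs were placed on GENCODE M21 exons, and the region is that of protein-coding transcripts. Each library came from 1 mouse, with totals of 2311242 to 3549156 reads. PCR duplicates were not marked, so reads may not be independent counts. The intervals treat them as independent and may be too narrow even for counting error.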

Additional observations from a re-analysis of the deposited data

How the results depend on the processing

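No member was called in the AMPKα1 model with any alternative, nor any member APS with those run on APSs (DESeq2, library totals, no filter, the block and each library left out). For AMPKα2, the count of members called rose from 0 to 1 (Cfd) with library totals and with no filter, and ran from 0 to 1 when each library was left out, with Cfd called without AMPKα2 WT replicate 2. Its member APSs called rose from 0 to 2 with no filter (the main Cfd APS and the coding-exon Plin1 APS), while all APSs called rose from 13 to 557. Members with a different KO effect in the models ran from 0 to 2 with a library left out: 2 without AMPKα1 KO replicate 1, 1 without AMPKα1 KO replicate 2, where all genes called rose from 10 to 514 and 456. All genes called in the AMPKα1 model rose from 0 to 124 with DESeq2 and 83 in 1 fit of all 8 libraries. In the AMPKα2 model the main 74 became 175 with library totals, 392 with no filter and 6 in 1 fit of all 8 libraries, and ran from 38 (without WT replicate 1) to 106 (without WT replicate 2), with 42 without KO replicate 1. Library totals moved the median over all genes to 0.22 (AMPKα1) and −0.17 (AMPKα2) on the log2 scale, and turned Fasn to −0.15 in the AMPKα2 model. Over all genes, same-numbered mice did not deviate together (correlations of 0.031 and −0.0041), which cannot show whether mice were paired. Among the members of the AMPKα2 model, replicate 1 was higher for each in KO and for all but Acly in WT. In the AMPKα1 model replicate 2 was higher for all but Acly in KO, and replicate 1 for all but Cidec, Scd1 and Acly in WT. With the replicate block, 0 members were called in either model, 108 genes were called in the AMPKα2 model, and Adipoq and Cidec turned to −1.10 and −2.09 in the AMPKα1 model.

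With each library left out, log2 fold changes of the AMPKα1 model that changed sign ran from −3.92 to 1.24 for Adipoq, −0.87 to 1.95 for Cfd, −8.12 to 1.28 for Cidec, −1.48 to 3.29 for Scd1, −0.45 to 1.29 for Acaca and −0.28 to 1.99 for Acly. In the AMPKα2 model they ran from −0.94 to 0.016 for Adipoq, −0.75 to 1.69 for Plin1, −0.31 to 0.11 for Fabp4, −1.40 to 0.10 for Cidec, −1.17 to 0.087 for Scd1, −1.02 to 1.18 for Fasn, −0.68 to 0.15 for Acaca and −0.42 to 0.29 for Acly. Plin1, Fabp4, Retn and Fasn kept their sign in the AMPKα1 model, and Cfd and Retn in the AMPKα2 model, with every alternative run. The cause of these shifts was not tested. With 2 mice per group, depth is not the only limit: Acly had 5 to 7 reads per AMPKα2 library, while Cfd, with 765 and 5529 reads, still differed 7.02-fold between the AMPKα1 KO mice.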
